A study of Mus musculus with 6 samples.

Results

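The cytosolic ribosomal protein genes were examined in the left ventricle of mice that carried either a constricted or an unconstricted aorta. Members were chosen by name alone: gene symbols of the form Rpl or Rps followed by a number, together with Rplp0, Rplp1 and Rplp2, without names marked as pseudogenes and without the 10 Rps6k kinases that the pattern also catches. This gave 87 of the 34745 genes in the table, 53 with large subunit names, 33 with small subunit names and Rps19bp1, which encodes a protein that binds RPS19 and is not itself a ribosomal protein. Total RNA was sequenced from wild-type (WT) male C57BL/6 mice, listed as 8 weeks old, whose ventricles were collected 6 weeks after surgery. In 3 libraries the label is TAC, for transverse aortic constriction, in which a ligature on the aortic arch makes the ventricle pump against a raised pressure, and in 3 it is Sham, for the same operation without a ligature. The labels do not say whether the libraries are separate mice, and the p-values reflect only how these 6 libraries vary.

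The cytosolic ribosome has a small subunit, which reads the mRNA, and a large subunit, which joins amino acids, and each is built from ribosomal RNA and a set of proteins present in about equal number. Most of these proteins are made in every cell. Rpl3l is the exception described most often in the heart: in mice it is expressed in striated muscle after birth, where its product takes the place of RPL3, the large subunit protein whose central finger reaches toward the peptidyl transferase centre. The mRNAs of ribosomal proteins typically begin with a run of pyrimidines, called the terminal oligopyrimidine (TOP) tract, through which the kinase mTOR controls their translation.

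The start regions of 3 members are shown: that of the muscle paralog, and those of 2 other members picked because each carries 1 of the marked features common in promoters of ribosomal protein genes. Each runs from 130 bases before to 20 bases after the annotated start in RefSeq on GRCm38.p6, and all 3 are on the plus strand. Capitals mark the E-box letters CANNTG, which many muscle transcription factors read, the letters CCGGAA on either strand, the core read by ETS factors, and any C followed by at least 4 further pyrimidines that begins within 5 bases of the start. The first is Rpl3l (chr17:24727696-24727845), the second Rpl28 (chr7:4792835-4792984), which encodes a large subunit protein, and the third Rps25 (chr9:44407584-44407733), which encodes a small subunit protein and had the highest FPKM of the members tested.
Rpl3l: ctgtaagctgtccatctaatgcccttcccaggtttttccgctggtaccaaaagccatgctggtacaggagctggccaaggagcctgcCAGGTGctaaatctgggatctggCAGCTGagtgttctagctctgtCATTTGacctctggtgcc
Rpl28: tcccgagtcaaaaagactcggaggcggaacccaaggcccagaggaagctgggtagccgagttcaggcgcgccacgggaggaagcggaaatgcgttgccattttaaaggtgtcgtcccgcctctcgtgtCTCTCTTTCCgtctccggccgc
Rps25: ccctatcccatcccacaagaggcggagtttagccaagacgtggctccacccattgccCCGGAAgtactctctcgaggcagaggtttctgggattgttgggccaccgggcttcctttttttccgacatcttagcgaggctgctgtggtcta

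The Rpl3l region held 3 E-box matches and neither CCGGAA nor a pyrimidine tract at the start. Over the 300-base windows that RefSeq gives, a window being 1 annotated start, 66 members had 78 windows. CCGGAA, searched on both strands, was in 36 of the 78 (46.2%) and in 14.9% of all 32851 windows. A pyrimidine tract at the start, searched on the transcribed strand, was in 32 of the 78 (41.0%) and in 18.3% of all windows. Runs that begin farther from the annotated start were not counted, and the Rps25 region holds such a run just upstream, so the share may be too low. CANNTG, which reads the same on both strands, was in 40 of the 78 (51.3%) and in 72.3% of all windows, and the Rpl3l window held 4 matches. A pattern of letters for MEF2, another muscle factor, searched on both strands, was in none of the 78 windows, that of Rpl3l included. It was in 3.69% of all windows. This pattern fixed the outer letters in 1 form and took any letters between them. Other forms of the MEF2 core were not searched, so the result does not show that such sites are absent. GGGCGG, the GC box, was in 46 of the 78 (59.0%) and in 35.7% of all windows, and not in that of Rpl3l. The Rpl3l window lacked both the ETS letters and the tract, as searched here. Taken singly, each was also absent from the greater number of member windows, and windows that lack both were not counted. These are matches of letters and not measured binding sites.

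Library totals ran from 17399510 to 28401399 counts over genes. The labelled tissue was checked against cardiomyocyte markers, all 12 of which were tested, and against 10 skeletal muscle markers, of which 8 were too low to test, with at most 0.989 CPM (a gene's count relative to the scaled library total) in any library, and Myh4, a fast skeletal myosin gene, had 0 counts in all 6. Atrial markers were uneven within both groups. Myl7 had 2, 28 and 229 counts under the TAC label and 208, 4 and 187 under the Sham label (replicates 1, 2 and 3). Myl4 had 12, 130 and 572 against 579, 49 and 618 counts. The part of this unevenness in the differences below was not tested. The pressure-load genes went against the labels. Nppa, which encodes atrial natriuretic peptide, had 92.2, 64.3 and 95.1 CPM under the TAC label and 772, 1894 and 595 CPM under the Sham label, and Acta1, the skeletal alpha-actin gene of the fetal heart programme, was 9.41-fold higher under the Sham label (adjusted p = 0.0222 and 0.0448, edgeR quasi-likelihood test). Left out in turn, any 1 library labelled TAC took Nppa to an adjusted p of 0.0719 to 0.0816, and each library but TAC 3 took Acta1 to one of 0.0504 to 0.121, while blocking on the replicate number gave 0.0734 for both. Every direction below is therefore that of the label, and not of a measured pressure load.

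As a family, the ribosomal protein genes hardly differed between the labelled groups, and 1 of the 85 tested passed an adjusted p of 0.05 in edgeR's quasi-likelihood test, against 1.43% of all 15198 genes tested. That gene was Rps20, higher under the TAC label, a direction in which 0.322% of all genes passed. None passed toward the libraries labelled Sham, where 1.11% of all genes did. 6 members had an unadjusted p under 0.05, or 7.06% of those tested, while 20.9% of all genes had one, and DESeq2 called 2 members, Rps20 and Rpl3l, and 7.86% of all genes. The 2 members left untested for low counts were Rpl10l, a copy best known from the testis, with 0 counts in every library, and Rpl39l, also known from the testis, with 2 counts in the library labelled Sham 2 and 0 in the other 5.

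The log2 differences of the members, labelled TAC minus labelled Sham, ran from -0.50 for Rpl3 to 0.98 for Rpl9, with quartiles of -0.04 and 0.13. Over all genes tested the quartiles were -0.23 and 0.24. 79 of the 85 members (92.9%) had a difference within 0.5 of 0 on the log2 scale, as did 77.7% of all genes. An estimate above 0 was found for 53 of the 85 (62.4%) and for 50.9% of all genes. Without the library labelled Sham 1 the median of the members was -0.003. The members' median was 0.05 and that of all genes 0.01, and the median of the members was -0.02 when library totals were left unscaled, a setting that moved the median of all genes to -0.06. The 51 tested large subunit genes had a median of 0.05 and the 33 small subunit genes one of 0.04. The libraries of the 2 groups did not overlap for 10 members, 9 higher under the TAC label and 1, Rps27l, higher under the Sham label, or 11.8% of the members against 27% of all genes.

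**Figure D1:**
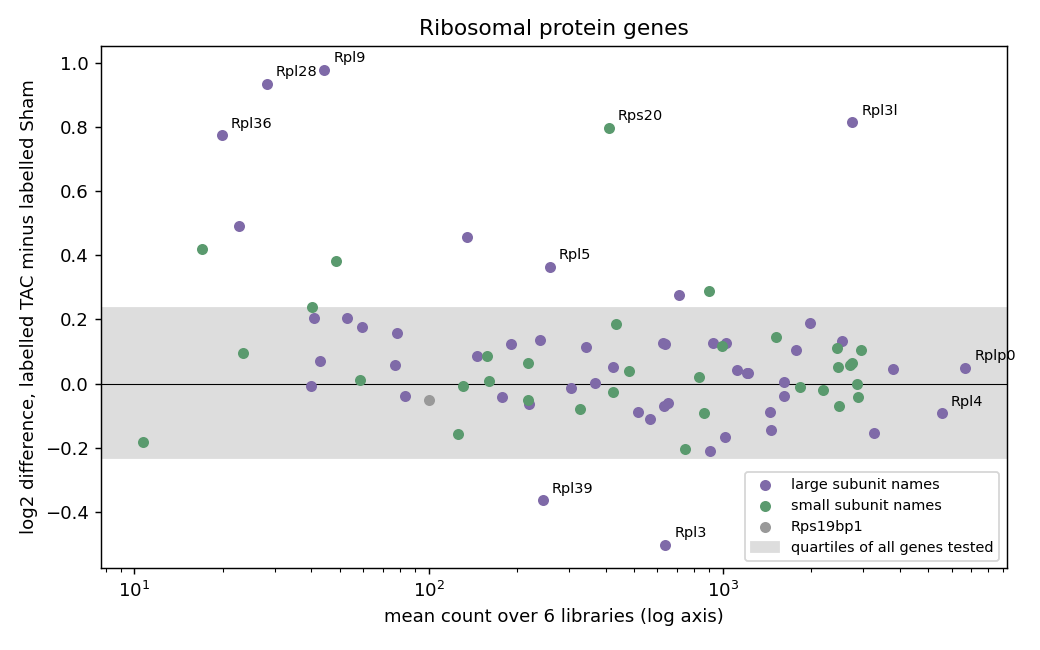
Log2 difference (labelled TAC minus labelled Sham, edgeR) of each of the 85 tested ribosomal protein genes against its mean count over 6 libraries on a log axis, coloured by subunit name, with a grey band for the quartiles of all genes tested (-0.23 to 0.24). Among genes above 100 counts, Rpl3l at 0.81 and Rps20 at 0.80 lie farthest above the band and Rpl3 at -0.50 farthest below it, while Rpl9, Rpl28 and Rpl36 lie high at mean counts below 100.

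The members together took 0.401%, 0.376% and 0.420% of the gene counts under the TAC label (replicates 1, 2 and 3), and 0.381%, 0.402% and 0.429% under the Sham label (replicates 1, 2 and 3). The groups overlapped, with means of 0.399% ± 0.0219 and 0.404% ± 0.0241 (SD, n = 3; exact permutation test, two-sided, p = 0.7, where the smallest possible is 0.1). The order of the libraries did not follow the labels: the libraries labelled TAC 2 and Sham 1 were the lowest and those labelled Sham 3 and TAC 3 the highest. Counted gene by gene, 10 of the 85 members lay above their own 6-library mean in the library labelled Sham 1 and 27 in TAC 2. In the other 4 the number was 57 in TAC 1, 64 in TAC 3, 49 in Sham 2 and 53 in Sham 3. The median member deviated by -0.12 (log2) in Sham 1 and by 0.10 in TAC 3, and the medians of all genes were within 0.01 of 0 in every library.

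**Figure D2:**
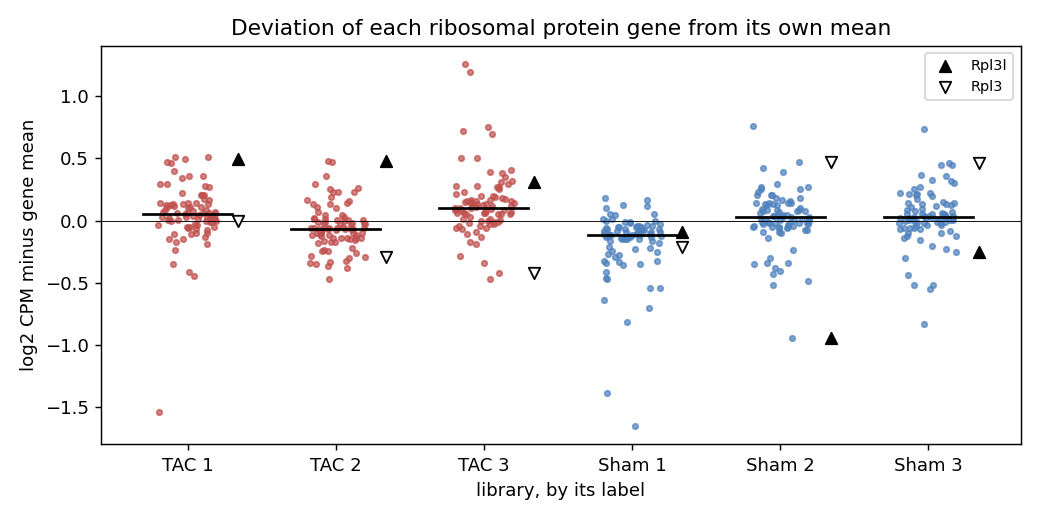
Each dot is 1 tested ribosomal protein gene, plotted as its log2 scaled CPM in a library minus its mean over the 6 libraries, with the median as a black line, red for libraries labelled TAC and blue for those labelled Sham. Medians lie between -0.12 (Sham 1) and 0.10 (TAC 3). The triangles of Rpl3l and Rpl3, which also stand among the dots, lie on opposite sides of 0 in every library but Sham 1. In TAC 1 that of Rpl3 lies only just below 0.

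Rpl3l (ENSMUSG00000002500, chromosome 17, 24727820 to 24736143 on GRCm38), the striated muscle paralog introduced above, had 178, 176 and 157 CPM under the TAC label (replicates 1, 2 and 3) and 119, 65.8 and 106 CPM under the Sham label (replicates 1, 2 and 3). Every library labelled TAC lay above every library labelled Sham, and the lowest value was that of Sham 2. The means were 170 ± 11.8 and 97.0 ± 27.7 CPM (SD, n = 3), a fitted difference of 1.76-fold (log2 0.81, SE 0.21), and it did not pass (adjusted p = 0.0977, edgeR). With DESeq2 on the same counts it did (adjusted p = 0.00806), and it did not under the other 14 settings, where the adjusted p ran from 0.0603 to 0.214. Of the genes beside it, Ndufb10, a respiratory complex I subunit gene, had 23.4, 25.2 and 22.2 FPKM under the TAC label and 25.2, 17.4 and 21.7 FPKM under the Sham label. Msrb1, a methionine sulfoxide reductase gene on the other side, had 44.7, 47.4 and 30.5 against 71.1, 52.5 and 46.0 FPKM. Both overlapped between groups. The next member along, Rps2, which encodes a small subunit protein and ends 5890 bases before Rpl3l begins, had a log2 difference of 0.10 (SE 0.14, adjusted p = 0.725).

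Rpl3 (ENSMUSG00000060036, chromosome 15, 80077794 to 80091868), the ubiquitous counterpart, had 28.4, 23.4 and 21.3 CPM under the TAC label and 24.6, 39.6 and 39.4 CPM under the Sham label. The groups overlapped because the library labelled Sham 1 lay below TAC 1. The log2 difference was -0.50 (SE 0.21), opposite in sign to that of Rpl3l, and did not pass (adjusted p = 0.220, edgeR). The annotated locus of Rpl3 shares 535 bases with Syngr1, a synaptic vesicle protein gene with 607 counts on average against 638 for Rpl3. Whether the counting used strand is not known from the labels, so reads of the shared stretch cannot be told apart. The same holds for 24 members in all, and in 8 of them the overlapping gene had more counts, as for Rpl28, with 28.2 against 116 for Ube2s.

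Rpl3l had 6.27, 7.54 and 7.35 counts for each count of Rpl3 under the TAC label (replicates 1, 2 and 3), and 4.83, 1.66 and 2.70 under the Sham label (replicates 1, 2 and 3). All 3 ratios under the TAC label were higher than all 3 under the Sham label, and those labelled Sham were spread more widely. Per length, in FPKM, the ratios were 17.8, 21.4 and 20.9 against 13.7, 4.73 and 7.68. The mean log2 ratio differed by 1.33, or 2.52-fold (exact permutation test, two-sided, p = 0.1, the smallest that 3 against 3 can give; adjusted p = 0.7 over the 7 paralog pairs compared). The FPKM ratios are larger than the count ratios because the deposited values imply a length of 1699 bases for Rpl3l and of 4833 for Rpl3. For 32 of 86 members the implied length exceeded the annotated locus, so FPKM may understate some members against others.

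**Figure D3:**
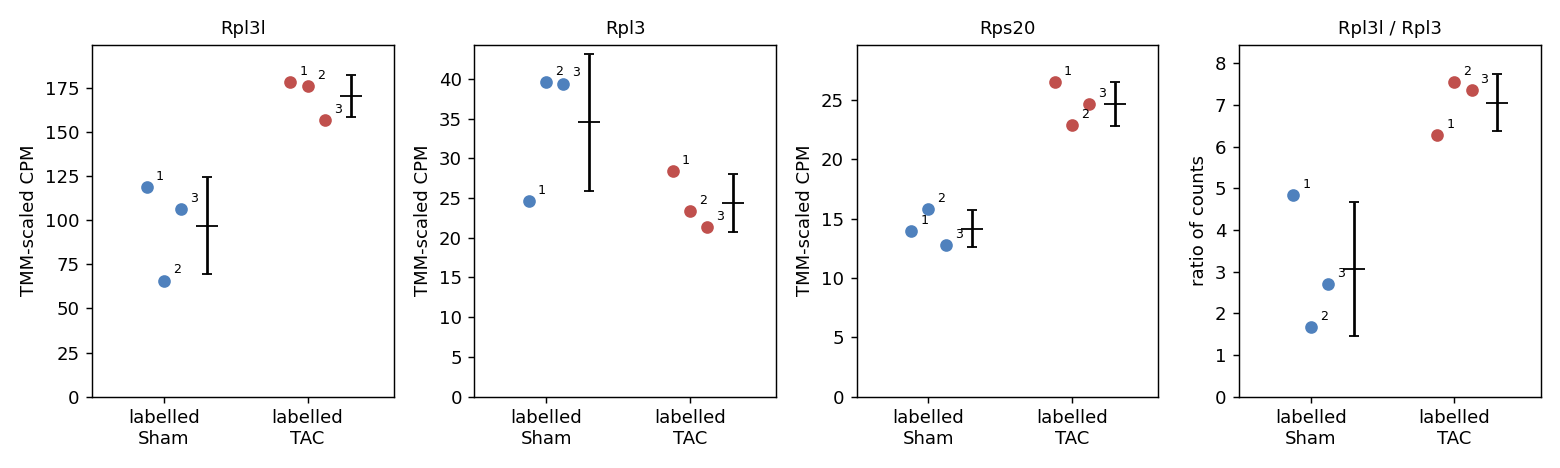
Scaled CPM of Rpl3l, Rpl3 and Rps20 and the ratio of Rpl3l to Rpl3 counts, each point being 1 library with its replicate number and the black bar the mean ± SD (n = 3). The libraries labelled TAC lie above all of those labelled Sham for Rpl3l, Rps20 and the ratio, and the groups overlap for Rpl3.

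Among the 87 members Rpl3l ranked 11, 11 and 12 by FPKM under the TAC label (replicates 1, 2 and 3), and 12, 21 and 13 under the Sham label (replicates 1, 2 and 3). Rpl3 ranked between 44 and 57 in all 6. Rpl3l thus stood above Rpl3 in every library. It made up 4.29%, 4.59% and 3.72% of all member counts under the TAC label and 3.16%, 1.63% and 2.63% under the Sham label, which do not overlap (exact permutation test, two-sided, p = 0.1).

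Cardiomyocyte markers lay on the same side as Rpl3l. The 12 cardiomyocyte markers summed to between 150622 and 177521 CPM under the TAC label and between 122566 and 143955 CPM under the Sham label. 11 of the 12 had an estimate above 0, with a median log2 difference of 0.35, and none passed with edgeR (7 at an unadjusted p under 0.05, 4 with DESeq2). Of all genes tested, 50.9% had an estimate above 0, 20.9% an unadjusted p under 0.05, and 7.86% passed with DESeq2. Of the skeletal muscle markers, the 2 that could be tested also lay higher under the TAC label without overlap, and neither passed with edgeR (both at an unadjusted p under 0.05, 1 with DESeq2). These were Ckm, a creatine kinase gene also active in the heart, at 816 to 968 against 612 to 759 CPM (log2 0.43, adjusted p = 0.134), and Atp2a1, a calcium pump gene, at 12 to 14 against 0 to 6 counts. The part of these 2 genes' difference in that of Rpl3l was not tested. Fibroblast markers went the other way, at 1673 to 1950 CPM against 2902 to 3730 CPM, and Col1a2, a type I collagen chain, passed (log2 -1.47, adjusted p = 0.0459, edgeR), though not when blocked on the replicate number (0.0600) or without any 1 library other than Sham 1 (0.0764 to 0.134). Macrophage markers had 199 to 358 CPM under the TAC label and 437 to 467 CPM under the Sham label, with none of 10 passing by edgeR (7 at an unadjusted p under 0.05, 2 with DESeq2). Ttn was the largest part of the cardiomyocyte sum, at 80846 to 91463 CPM under the TAC label and 73904 to 77558 CPM under the Sham label. Its log2 difference was 0.21, while those of the 12 markers ran from -0.10 (Fabp3) to 0.70 (Myh6). A ratio to this sum therefore rests largely on Ttn, and ratios to single markers were not tested. For each 1000 CPM of the summed cardiomyocyte markers, Rpl3l had 1.005, 1.04 and 1.04 CPM under the TAC label and 0.825, 0.537 and 0.838 under the Sham label, a mean log2 difference of 0.52 with no overlap (exact permutation test, two-sided, p = 0.1). The part of the fibroblast and macrophage values in this difference was not tested. In whole tissue, fewer cells of a type and less RNA per cell cannot be told apart.

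Rps20 (ENSMUSG00000028234, chromosome 4, 3831334 to 3835665), which encodes a protein of the small subunit head, had 26.5, 22.9 and 24.7 CPM under the TAC label and 14.0, 15.8 and 12.8 CPM under the Sham label. The groups lay well apart, with 24.7 ± 1.82 against 14.2 ± 1.53 CPM (SD, n = 3). The fitted difference was 1.74-fold (log2 0.80, SE 0.13, adjusted p = 0.0396, edgeR quasi-likelihood test). The size held between 0.73 and 0.89 on the log2 scale when each library was left out in turn, but the call did not: the adjusted p was 0.123, 0.0935 and 0.0860 without the libraries labelled TAC 1, 2 and 3, and 0.0546, 0.0817 and 0.126 without those labelled Sham 1, 2 and 3. Blocking on the replicate number gave 0.117.

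Other members with small p-values did not pass. Rpl28 had 1.79, 1.48 and 2.03 CPM under the TAC label and 1.05, 0.989 and 0.706 under the Sham label, and Rpl36, another large subunit gene, 1.16, 0.916 and 1.52 against 0.622, 0.671 and 0.814. Both pairs of groups lay apart on few reads, 28.2 and 19.8 counts per library on average, with log2 differences of 0.93 (SE 0.29, adjusted p = 0.137) and 0.77 (SE 0.33, adjusted p = 0.232). Rps27rt, a retrogene copy of Rps27, overlapped between groups (log2 0.29, adjusted p = 0.302). In the other direction stood Rpl39 (log2 -0.36, adjusted p = 0.286), Rpl10a (-0.21, 0.362), Rps27l (-0.20, 0.377), Rpl13a (-0.15, 0.456) and Rplp1 (-0.14, 0.521), of which Rps27l was without overlap.

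Read by role, no further member passed. Rpl5 and Rpl11 encode the proteins that bind 5S rRNA and, when unassembled, the p53 regulator MDM2. Rpl5 had 14.5, 13.2 and 13.4 CPM under the TAC label and 9.42, 11.4 and 11.1 under the Sham label, so the groups lay apart (log2 0.36, SE 0.14, adjusted p = 0.186), whereas Rpl11 differed by 0.18 (adjusted p = 0.769). The stalk that recruits elongation factors is encoded by Rplp0, Rplp1 and Rplp2, whose differences lay between -0.14 and 0.05. Rplp0, often used as a reference gene, had the most counts of all members in each library, at 338, 309 and 311 CPM under the TAC label and 289, 316 and 321 CPM under the Sham label, and the groups overlapped (log2 0.05, SE 0.10, adjusted p = 0.820). Proteins lining the exit tunnel are encoded by Rpl4, Rpl17 and Rpl39, at -0.09, 0.20 and -0.36. Rps6, the substrate of the S6 kinases, differed by 0.01 (SE 0.29), and Rps27a, a ubiquitin fusion gene, by 0.09. Rps6, Rpl11 and Rpl17 averaged only 58.5, 59.3 and 52.8 counts per library, with an SE of 0.29 each, so their differences are poorly resolved.

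Levels of the members differed far more between genes than between groups. By mean FPKM the highest of those tested included Rps25 (198), Rpl4 (183), Rps15 (160) and Rpl13a (149), and the lowest were Rpl9 (0.193), Rps13 (0.278), Rps27 (0.284), Rpl28 (0.509) and Rpl12 (0.546). The 5 lowest all had an implied length above that of the locus (10922 bases against 3081 for Rpl9), and the highest named here did not, so this order rests in part on those lengths. 11 members had a mean over 100 FPKM and 15 a mean under 1, around a median of 8.96. The 10 members with the most counts held 42.4% of all member counts. 20 members had a mean under 100 counts per library, and 18 of these entered the test. Of the 43 members with a mean of at least 500 counts, 39 had a log2 difference within 0.25 of 0.

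Several of the low members had an intronless copy elsewhere with more counts. Processed pseudogenes are copies of an mRNA inserted back into the genome, and ribosomal protein genes have many. The table names 21 of them for 15 of the members, and 4 had more counts than the parent. Rpl23a-ps3 averaged 1680 counts against 22.7 for Rpl23a, Rpl9-ps6 1034 against 44.2 for Rpl9, Rpl27-ps3 479 against 39.8 for Rpl27, and Rps26-ps1 1593 against 328 for Rps26. The labels do not tell how reads shared by a parent and its copy were assigned, so these 4 genes and the other low members are uncertain. With the counts of each named pseudogene added to its parent, the log2 difference of Rpl9 went from 0.98 (SE 0.49) to 0.29 (SE 0.13) and that of Rpl23a from 0.49 to -0.02, and neither passed before or after (adjusted p = 0.307 and 0.269 for Rpl9, 0.384 and 0.933 for Rpl23a). This step was added after the counts were seen.

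**Figure D4:**
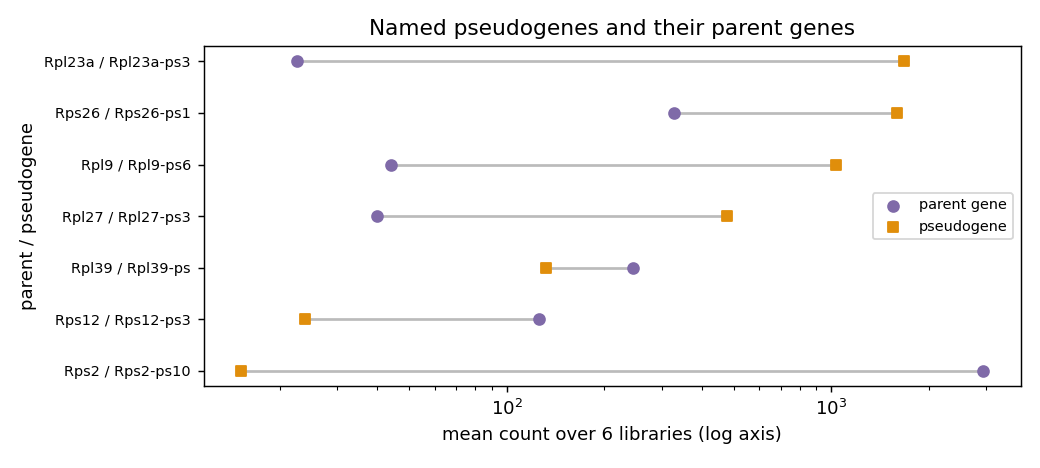
Mean count per library on a log axis of the 7 named pseudogenes with a mean of at least 10 counts (orange squares) and of their parent genes (purple circles), each pair joined by a line. For Rpl23a, Rps26, Rpl9 and Rpl27 the pseudogene lies to the right of its parent, and for Rpl39, Rps12 and Rps2 to the left.

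The other paralog pairs did not part the groups. Rpl7l1 stood at 0.308, 0.330 and 0.334 times the FPKM of Rpl7 under the TAC label and at 0.269, 0.299 and 0.347 under the Sham label. Rpl22l1 stood at 0.0793 to 0.110 times Rpl22 in the former and at 0.0758 to 0.116 in the latter. Rps4l, a copy of Rps4x, stood at 0.0705 to 0.0940 and at 0.0815 to 0.0877, and its locus overlaps that of Tmtc1, which averaged 8264 counts against 161. Rpl36al exceeded Rpl36a in all 6 libraries, by 5.05 to 9.28 times in FPKM. Rps27l and Rps27rt both exceeded Rps27, which had only 12 to 22 counts per library. Over these 6 pairs the exact two-sided permutation p was between 0.2 and 1 and the adjusted p between 0.7 and 1.

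Genes that build or use the ribosome were described from lists. Over all genes tested, 20.9% had an unadjusted p under 0.05, 7.86% passed with DESeq2 and 50.9% had an estimate above 0. Of 4 ribosome components whose names fall outside the pattern, among them Rpsa, Fau and Rack1 (listed as Gnb2l1), none passed with edgeR or DESeq2 and 1 had an unadjusted p under 0.05. Fau, which encodes a small subunit protein fused to a ubiquitin-like one, had a log2 difference of -0.16, and Rack1, a scaffold on the small subunit head, one of -0.09. Of 38 ribosome biogenesis genes none passed with edgeR or DESeq2, 7 had an unadjusted p under 0.05 and 26 had an estimate below 0, with a median log2 difference of -0.17 against 0.01 over all genes. The smallest p-values were those of Tsr1 (log2 -0.51, adjusted p = 0.168) and Bop1 (-0.46, 0.175), which act on the small and the large subunit, and of Bysl (-0.41), which also acts on the small subunit.

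Of 25 translation factor genes 1 passed with edgeR and 2 with DESeq2, and 10 had an estimate above 0 (median -0.04). Over all genes tested these shares were 1.43%, 7.86% and 50.9%. Eif4h, which stimulates the helicase eIF4A, had 82.7, 85.3 and 95.0 CPM under the TAC label and 44.2, 52.1 and 48.5 under the Sham label, 1.82-fold apart (log2 0.86, SE 0.11, adjusted p = 0.0256, edgeR). The groups lay apart. Its adjusted p was 0.0816, 0.0764 and 0.0712 without the libraries labelled TAC 1, 2 and 3, 0.0632 and 0.0827 without those labelled Sham 2 and 3, and 0.0738 when blocked on the replicate number. Eef1a1, an elongation factor whose mRNA also carries a TOP tract, had 314 ± 11.2 CPM under the TAC label and 449 ± 48.4 under the Sham label (SD, n = 3; log2 -0.52, edgeR adjusted p = 0.0711). It passed with totals left unscaled (0.0477), with limma at either pseudocount (0.0486 and 0.0487) and with DESeq2 (0.00452), and not under the other 11 alternatives, where the adjusted p was between 0.0514 and 0.210. Eif4a1, the helicase itself, had a log2 difference of -0.47 (adjusted p = 0.147).

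None of 20 regulators of TOP mRNAs and ribosome supply passed with edgeR (3 at an unadjusted p under 0.05, 1 with DESeq2). Estimates above 0 numbered 11 of the 20, with a median log2 difference of 0.04. For this and the next 2 lists, the shares over all genes tested were 20.9% at an unadjusted p under 0.05, 7.86% with DESeq2 and 50.9% above 0. Myc, a transcription factor that drives ribosome production, had 1.75 ± 0.150 CPM under the TAC label and 4.76 ± 2.18 under the Sham label (SD, n = 3; log2 -1.44, SE 0.34, edgeR adjusted p = 0.0854). It passed with DESeq2 (0.00630) and without the library labelled Sham 1 (0.0448), and not under the other 13 alternatives (0.0543 to 0.196). None of 15 ribosome chaperones and import factors passed either (2 at an unadjusted p under 0.05, 1 with DESeq2), and 4 of the 15 had an estimate above 0, with a median of -0.10. The smallest p-values were those of Naca, a subunit of the complex that meets the nascent chain, at log2 0.41 (adjusted p = 0.0932), and of the import factors Ipo7 and Ipo4, which lay the other way at -0.40 (0.127) and -0.41 (0.272). The mitochondrial ribosome is a separate particle encoded by Mrpl and Mrps genes. All 77 of these in the table were tested and none passed with edgeR (9 at an unadjusted p under 0.05, 1 with DESeq2), while 63 had an estimate above 0, with a median of 0.18. Mrps35 had the smallest p, at 73.1 ± 6.49 against 50.6 ± 8.54 CPM (SD, n = 3; log2 0.53, edgeR adjusted p = 0.110).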

How the data were processed

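Total RNA of 6 left ventricle libraries was sequenced after DNase treatment and a total RNA library kit, per the labels' protocols. Per the submitters' processing notes, StringTie 1.3.0, HISAT2 2.0.4 and GRCm38 (mm10) were used, in roles the notes do not state. Not given in the sources used here are the counting program, its strand setting, its handling of reads with several matches and the annotation version. The authors deposited unnormalized counts per gene. In the deposited FPKM columns a count is scaled by gene length and library total, so the length behind each value was recovered from the count. The lncRNA table was not used here.

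All genes were fitted with edgeR 4.0.16 in R 4.3.3 (quasi-likelihood, TMM, filterByExpr at 10 counts, Benjamini-Hochberg adjustment over all genes tested, replicate numbers not used). An SE is the size of the log2 difference over the root of its F statistic. CPM are TMM-scaled. Shares and ratios were tested by exact permutation (SciPy 1.17.1). On simulated data only the estimated size of the largest change put in was checked, and no limit was set on false calls. Alternatives were DESeq2 1.42.0, limma 3.58.1 on log2(FPKM + 0.1) and log2(FPKM + 1), other scalings, no filter, a replicate block and each library left out. Adding pseudogene counts, and shares without Rpl3l, came after seeing the data.

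Named are Rpl3, Rpl3l, members past the threshold, the 6 smallest p-values per direction, the 5 highest and lowest mean FPKM, paralog pairs and, per list, genes past the threshold and up to 3 with the smallest p. Others were named for their role or locus after their values were seen. The members and lists were chosen with earlier results of these data known. Of the list symbols, 2 were matched by an older name or ID, and Rpl26l1 was not matched. Some genes that this rule names are not reported here.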

Additional observations from a re-analysis of the deposited data

How the results depend on the processing

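Rpl3l kept its sign under all 15 alternatives (log2 0.60 to 0.99; 0.60 without the library labelled Sham 2 and 0.99 without Sham 1) and passed only with DESeq2 (log2 0.82, adjusted p = 0.00806). Rpl3 kept its sign and did not pass under any of the 15 (log2 -0.70 to -0.39, adjusted p from 0.0621 to 0.510). The number of members past the threshold was 2 with DESeq2, 0 when blocked on the replicate number and 0 to 0 when each library was left out, against 1 as reported and 1 under the other 7 alternatives. Such fits hold fewer libraries or fewer residual degrees of freedom. The median over members stayed between -0.02 and 0.08, less than the spread between replicates from the reported 0.05. The log2 ratio of Rpl3l to Rpl3 differed by 0.96 to 1.73 with each library left out. The difference in the members' summed share, -0.00522 percentage points as reported, changed sign to 0.00255 without mitochondrial genes in the totals, to 0.00620 without the library labelled TAC 2 and to 0.00737 without Sham 3, and ran from -0.0167 to 0.00737 over the libraries left out. All of these lie within the spread between libraries, and the cause was not tested. The labels do not say whether libraries with the same replicate number belong together. Same-numbered libraries correlated at -0.12, -0.13 and -0.10 in their deviations from the group means, and differently numbered ones at -0.004 to 0.12. Deviations within a group cancel out, so these correlations cannot show whether the numbers pair the libraries. With the block the count over all genes went from 217 to 41. At few counts (20 members under 100 on average) differences of the size of Rpl28 or Rpl36 were not past the threshold at this depth.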
